A study of Mus musculus with 2 samples.

Results

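The genes described here encode the translation initiation factors (eIFs) and translation elongation factors (eEFs) of the mouse omentum. Members were the genes whose symbols begin with Eif or Eef followed by a digit and whose mean expression over both libraries was at least 1 FPKM, a count of sequenced fragments adjusted for transcript length and library size. Of 24346 genes listed, 64 matched the symbols and 61 reached the minimum, among 13127 genes that did so in all. These were 53 initiation factors and 8 elongation factors, and the expression minimum took no account of the difference between genotypes.

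RNA-seq was performed on whole omentum, a sheet of visceral fat that holds milky spots of lymphocytes, macrophages and stromal cells. One genotype was wild type (WT). The other was Postn-DTR, in which the diphtheria toxin receptor had been targeted into 1 allele of Postn so that cells using the Postn promoter were sensitive to diphtheria toxin (DT). Mice of both genotypes received DT and were examined after 5 days, and no library without DT was included. Each genotype was represented by 1 library, and whether a library came from a single mouse or a pool was not stated. The Postn promoter is used by several mesenchymal cell types, so the sensitive cells need not be of a single type. With 1 library for each genotype there was no spread between replicates, no test was possible, and none of the differences below has a replicate check. Differences are given as log2(FPKM + 1) in Postn-DTR less the same value in WT, called the change, and every change below is on that scale. In whole tissue, fewer cells of a type and less RNA per cell cannot be told apart.

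Initiation begins when eIF2 brings the initiator tRNA to the small ribosomal subunit, while eIF4E, eIF4G and eIF4A recruit the capped messenger RNA and eIF3 holds the assembly together. Elongation then needs eEF1A, which delivers charged tRNAs, the eEF1B exchange subunits, which recharge eEF1A with GTP, and eEF2, which moves the ribosome along. Many elongation factor and ribosomal protein messages start with a 5′ terminal oligopyrimidine (TOP) tract, a C followed by an unbroken run of C and T, through which mTORC1 controls their translation.

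The start of the transcript is shown for members that carry such a tract at an annotated start, and for Eef2, Eef1a1 and Eef1g, listed TOP messages in which the annotated start shown does not begin with one. Sequences were taken from GRCm38 on the strand of the gene, at the starts of GENCODE coding transcripts unless RefSeq is named. Capitals mark a C followed by at least 4 bases that are each C or T, searched on the strand of the gene only. Eef1b2 (chr1:63177130-63177153, plus strand), Eef1d (chr15:75909283-75909306, minus strand), Eif2s3x (chrX:94212628-94212651, minus strand), Eif3f (chr7:108934417-108934440, plus strand), Eif3m (chr2:105017020-105017043, minus strand), Eif4a2 (chr16:23107758-23107781, plus strand) and Eif4g2 (chr7:111074226-111074249, minus strand) had a tract at the start of at least 1 coding transcript, as did Eif2b4 and Eif2s1, whose shorter tracts are not printed. Eef2 (chr10:81176636-81176665, plus strand, RefSeq) had it from base 16 of the annotated transcript and is printed with the bases around it. Eef1a1 (chr9:78481701-78481724, minus strand, RefSeq) and Eef1g (chr19:8967041-8967064, plus strand) had no match at the start shown, which says only that these letters are not there, since an annotated start can differ from the one that cells use. The starts shown for Eif4g2 and Eef1a1 lie well inside the GENCODE gene. Those for Eef1b2, Eef1d, Eif2s3x, Eif3m and Eif4a2 lie a shorter way inside theirs.
Eef1b2: CTTTTTTTCCCTCagcgctggccg
Eef1d: CTCTCCTTTgcagtcctgagctcg
Eif2s3x: CTTTTCTCTCCgagcaagatggct
Eif3f: CTCTTTCTCggcaagatggcttct
Eif3m: CTTTTCCggtcggcgtgtttctgg
Eif4a2: CTTTTCagtcgggcgctgagtggg
Eif4g2: CTTCTTacagtacatttctagtga
Eef2: cgtcagcggtCTCTTCCgccgcagccgccg
Eef1a1: ttcccgagggtgggggagaacggt
Eef1g: tttccaactcagcggggctgtaga

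The sum of FPKM over all listed genes was 542190 for WT and 671882 for Postn-DTR. Depth read from the steps between low values was similar, with a Postn-DTR to WT ratio of about 1.03. Such steps show the total that the FPKM were divided by, which need not be the number of fragments sequenced. Postn was at 58.3 FPKM in WT and 16.2 in Postn-DTR. Several marker lists differed between the libraries. All 26 pancreatic acinar genes compared were lower in Postn-DTR and their list summed to 12677 FPKM against 20.6 FPKM, with Try4, Prss3, Ctrc, Reg1 and other genes of the list at 0. All 7 T cell genes were lower (summed FPKM 134.6 against 71.3), as were all 5 B cell genes (450.8 against 328.9), and all 6 macrophage genes were higher (2869 against 4616), with no marker of these 3 lists at 0. Adipocyte markers (2 of 6 higher, summed FPKM 7631 against 8597) and fibroblast markers (2 of 6 higher, 3015 against 2954) were detected in both libraries. So were mesothelial markers (2 of 4 higher, 363.5 against 342.1). Adipocyte and fibroblast markers do not by themselves tell omentum from other fat. The part of these cell populations in the values below was not tested. The FPKM sums of the libraries were unequal, and the acinar genes took 2.34% of the WT sum. Changes were therefore also computed after those genes were removed and both libraries were given equal totals. The median over all genes compared was then -0.28 in place of 0.02. The sums differed by far more than the acinar FPKM, so this shift came mainly from equalising the sums. The direction under these equal totals is given beside each group of factors.

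Translation factors were abundant transcripts of the omentum in both genotypes. Eef1a1, the main form of eEF1A, was at 3650.1 FPKM in WT and 5152 in Postn-DTR, ranked 5th and 8th of all genes, and held 41.9% and 44.2% of the FPKM of all members. Eef2 was next, at 774 and 1059 FPKM. A tier of members followed with FPKM of 345 to 359 in WT, namely Eif1, which helps to select the start codon, Eef1g, the structural subunit of eEF1B, and Eif5a, which keeps ribosomes moving through difficult stretches. At the other end of the range, the kinases Eif2ak2 (9.25 and 7.95 FPKM) and Eif2ak4 (5.29 and 6.14 FPKM) and Eif5a2 (1.16 and 1.48 FPKM) were the members just above the minimum. The 3 matching genes below it were Eif3j1 (0.0812 and 0.0761 FPKM), Eif4e1b (0 and 0.0270 FPKM) and Eef1a2, the eEF1A of muscle and neurons (0 and 0.0225 FPKM). The order of members by level was nearly the same in both genotypes, with a Spearman correlation of 0.98 across the 61 genes, which are not independent replicates. Several abundant members, such as Eef1a1 and Eif5a, have processed pseudogenes, and how reads shared with these were counted was not stated.

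**Figure D1:**
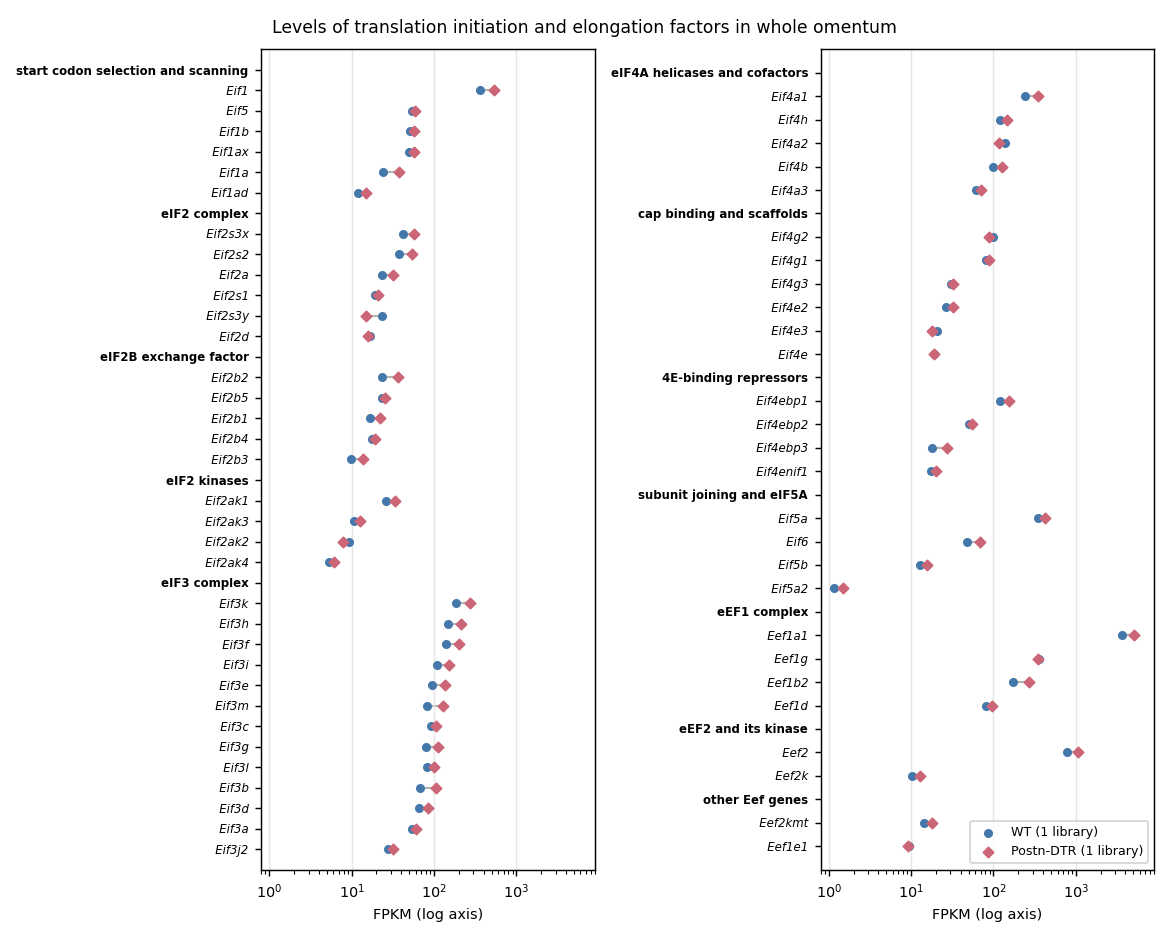
FPKM of each member in the WT and the Postn-DTR library on a log axis, 1 point per library, with initiation and elongation factors grouped. Levels ran from about 1 FPKM for Eif5a2 to 3650.1 and 5152 FPKM for Eef1a1.

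Most factors were modestly higher in the Postn-DTR library. As deposited, 53 of 61 members were higher, where 51.9% of all genes compared were higher, and 8 were lower, where 48.1% were lower. The median change of members was 0.29 (interquartile range 0.13 to 0.48), and that of all genes compared was 0.02 (interquartile range -0.24 to 0.28). The differences were small. At least 1.5-fold higher were 7 members, or 11.5%, close to the 9.86% of all genes that were, and at least 1.5-fold lower was 1 member, where 8.84% of all genes were. No member reached 2-fold in either direction, against 3.88% of all genes higher and 3.12% lower. With equal totals, 26 members were higher and 35 lower, the median turned to -0.03, and 22.6% of all genes were higher, with a median of -0.28. The direction of many single members therefore depended on whether totals were equalised. When both libraries were scaled to the same 75th percentile of genes compared, 51 members were higher, beside 42.1% of all genes. Summed FPKM of the members was 8711 in WT and 11659.8 in Postn-DTR, which was 1.61% and 1.74% of each library.

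As sets defined by symbol, initiation and elongation factors had medians that were alike. The core elongation factors had a higher median than the rest of their set, but not every core gene was higher. Eef1g had the lowest change of the set (-0.03), and Eef1d (0.23) lay below Eef2k (0.30). The median change was 0.29 for the 53 initiation factors, with 47 higher and 6 lower, and 0.29 for the 8 elongation factors, with 6 higher and 2 lower. With equal totals both medians were -0.03, with 23 of 53 and 3 of 8 members higher. The elongation set holds genes that are not elongation factors themselves (Eef2k, Eef2kmt and Eef1e1), with a median of 0.28 (-0.04 with equal totals). The 5 genes of eEF1 and eEF2 had a median of 0.45 (0.11 with equal totals), with 4 higher as deposited and 3 with equal totals. Summed FPKM of the initiation factors was 3640.2 in WT and 4695 in Postn-DTR, and that of the elongation factors was 5070.4 and 6965. The elongation to initiation ratio of these sums, which no scaling of a library can alter, was 1.39 in WT and 1.48 in Postn-DTR, and Eef1a1 made up most of the numerator.

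**Figure D2:**
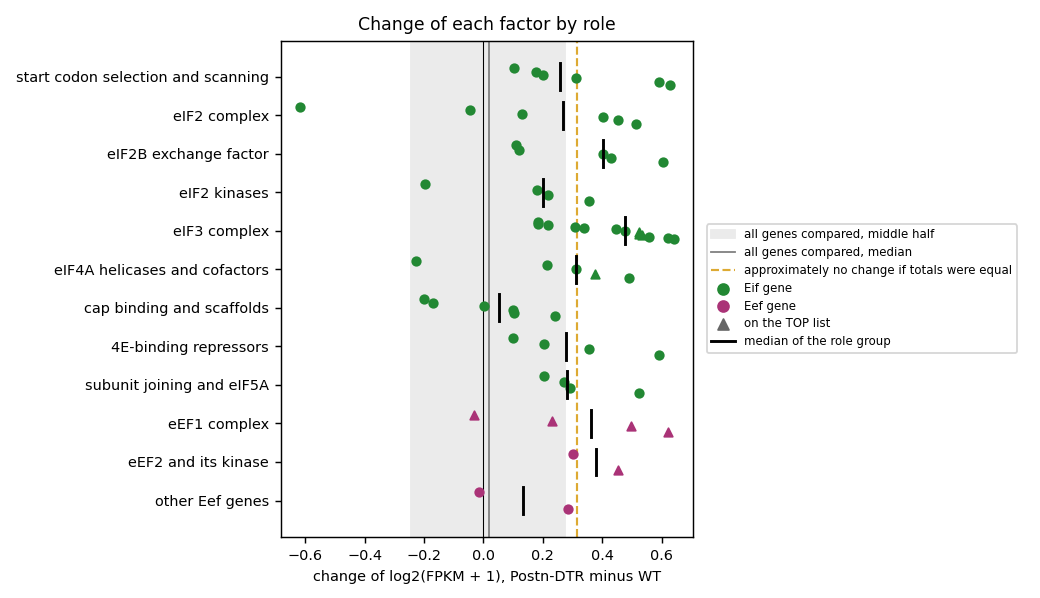
Difference in log2(FPKM + 1) between Postn-DTR and WT, positive where Postn-DTR was higher, for every member by role, 1 point per gene (green for Eif, purple for Eef, triangles for listed TOP members), with the median of each role as a bar, the interquartile range of all genes compared shaded, and a dashed line where equal totals would put about 0. As deposited, the 13 eIF3 genes lie between 0.18 and 0.64 (8 of 13 stay above 0 with equal totals), whereas the 6 cap-binding and scaffold genes lie between -0.20 and 0.24 (none above 0 with equal totals).

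Among elongation factors, the subunits of eEF1 differed from each other. Eef1a1 was 1.41-fold higher in Postn-DTR, with a change of 0.50. Eef1b2, the alpha exchange subunit, was at 175 FPKM in WT and 269 in Postn-DTR, with a change of 0.62 that was the highest among elongation factors. Eef1d, the delta exchange subunit, was at 80.7 and 94.9 FPKM, a change of 0.23. In contrast, Eef1g was at 357 FPKM in WT and 349.8 in Postn-DTR, with a change of -0.03, although its protein sits in the same complex as those of Eef1b2 and Eef1d. The Eef1b2 to Eef1g ratio, independent of scaling, was 0.488 in WT and 0.769 in Postn-DTR. Thus the transcripts of the 4 subunits compared did not keep the same proportions in both libraries. Eef2 had a change of 0.45, close to that of Eef1a1, and the Eef1a1 to Eef2 ratio was 4.72 in WT and 4.86 in Postn-DTR. Eef2k, the kinase that inactivates eEF2, was at 10.1 FPKM in WT and 12.7 in Postn-DTR, with a change of 0.30. Eef2kmt, a methyltransferase acting on eEF2, was at 14.5 and 17.9 FPKM, and Eef1e1, a scaffold protein of the tRNA synthetase complex, at 9.33 and 9.22 FPKM. With equal totals Eef1a1, Eef1b2 and Eef2 remained higher, with changes of 0.15, 0.28 and 0.11, and the other 5 elongation factors were lower.

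The eIF3 complex was the role group with the highest median. As deposited all 13 of its genes were higher (median 0.48), and with equal totals 8 of 13 were higher (median 0.14). Eif3b (GRCm38 chromosome 5, 140419328 to 140443360), part of the core of the complex, was at 68.2 FPKM in WT and 107 in Postn-DTR, with a change of 0.64 that was the highest of any member. Eif3m was at 83.0 and 128 FPKM (0.62), and Eif3k at 185 and 273 FPKM (0.56). The 3 eIF3 genes commonly counted among TOP messages lay close together, with Eif3e at 94.7 and 137.5 FPKM (0.53), Eif3f at 141.0 and 203 FPKM (0.52) and Eif3h at 148 and 213 FPKM (0.52). At the lower end were Eif3a, the largest scaffold subunit, at 53.5 and 60.9 FPKM (0.19), and Eif3c, its partner in the core, at 93.1 and 106 FPKM (0.18). The Eif3b to Eif3a ratio was 1.28 in WT and 1.75 in Postn-DTR, so genes for subunits of the core also differed in proportion. The subunit eIF3j was represented by Eif3j2 (27.5 and 32.1 FPKM), while its near-identical copy Eif3j1 was almost at 0, and how reads were divided between these copies was not stated, so both values are uncertain. Summed over the 13 genes, eIF3 was at 1233 FPKM in WT and 1709.7 in Postn-DTR.

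The cap-binding and scaffold genes stood at the other end, with a median change of 0.05. Of these 6 genes 4 were higher as deposited, and none was higher with equal totals, with a median of -0.28, the same as that of all genes. Eif4e, which binds the cap, was at 18.9 FPKM in WT and 19.0 in Postn-DTR. Eif4g1, the main scaffold, was at 81.5 and 87.7 FPKM, a change of 0.10. Eif4g2, a scaffold that lacks the eIF4E site, was at 99.9 and 88.8 FPKM, a change of -0.17, and Eif4e3, an atypical cap-binding protein, was at 20.5 and 17.7 FPKM, a change of -0.20. Their sum was nearly equal in both libraries, at 278.0 and 277.6 FPKM, while the sum of eIF3 differed 1.39-fold.

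The eIF4A helicases and their cofactors were higher in 4 of 5 genes as deposited and in 2 of 5 with equal totals, and the paralogs of the cap complex helicase went in different directions under both scalings. Eif4a1 (chromosome 11, 69666936 to 69672423), the abundant helicase of eIF4F, was at 244 FPKM in WT and 344 in Postn-DTR, with a change of 0.49 (0.15 with equal totals). Eif4a2, its paralog, was at 137 FPKM in WT and 117 in Postn-DTR, with a change of -0.23 (-0.57 with equal totals). The Eif4a1 to Eif4a2 ratio was therefore 1.79 in WT and 2.94 in Postn-DTR, a 1.65-fold difference that scaling cannot alter. Eif4a3, the helicase of the exon junction complex, was at 61.4 and 71.4 FPKM, and the cofactors Eif4b (99.1 and 129 FPKM) and Eif4h (119 and 148 FPKM) had changes of 0.37 and 0.31. Genes of the repressors that bind eIF4E were higher in 4 of 4 as deposited and in 2 of 4 with equal totals, beside an Eif4e that was level as deposited. Eif4ebp1 was at 121 and 155 FPKM, Eif4ebp2 at 51.1 and 54.8 FPKM, and Eif4ebp3 at 17.7 and 27.2 FPKM, with changes of 0.35, 0.10 and 0.59. The Eif4ebp1 to Eif4e ratio was 6.38 in WT and 8.16 in Postn-DTR. Eif4ebp3 overlaps another annotated gene on the same strand, as do Eif4e3 and Eef1d, so these values are uncertain.

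**Figure D3:**
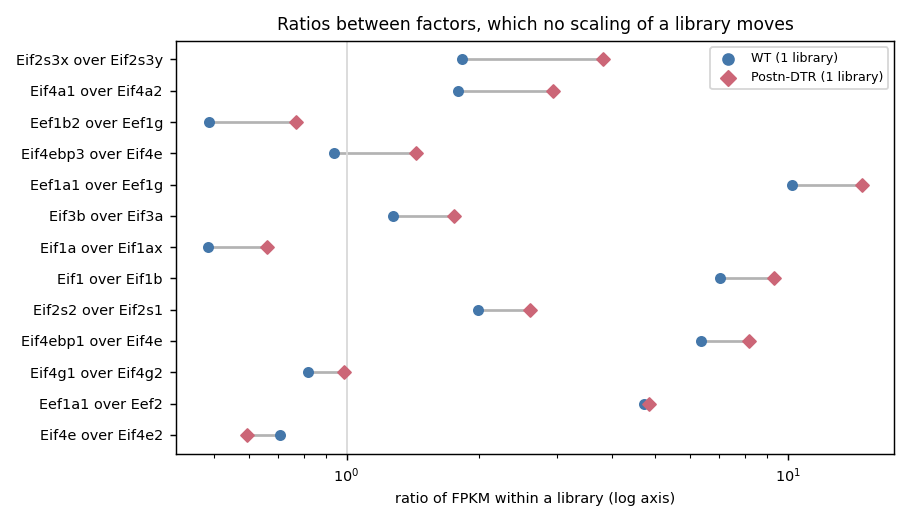
Ratio of FPKM within each library for pairs of factors that work together or replace each other, on a log axis, with 1 point for WT and 1 for Postn-DTR. The pairs furthest apart between libraries were Eif2s3x to Eif2s3y (1.83 and 3.81) and Eif4a1 to Eif4a2 (1.79 and 2.94), and Eef1a1 to Eef2 was nearly level (4.72 and 4.86).

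For start codon selection, all 6 genes were higher as deposited, with a median change of 0.26, and 2 of 6 were higher with equal totals. Eif1 was at 359 FPKM in WT and 540.4 in Postn-DTR (0.59), whereas its paralog Eif1b was at 51.1 and 57.9 FPKM (0.18). Eif1a was at 24.2 and 38.0 FPKM (0.63), whereas its paralog Eif1ax was at 49.8 and 57.4 FPKM (0.20). In each pair of paralogs the gene for 1 form thus differed more than the other. Eif5, which triggers GTP hydrolysis by eIF2, was at 54.2 and 58.3 FPKM.

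The genes for eIF2 included the only member at least 1.5-fold lower. Eif2s3y (chromosome Y, 1010543 to 1028847), a gene for the gamma subunit, was at 23.2 FPKM in WT and 14.8 in Postn-DTR, with a change of -0.62. Its X-linked counterpart Eif2s3x was at 42.5 and 56.5 FPKM, a change of 0.40. Other Y-linked genes, chosen after their values were seen, were also lower, with Ddx3y at 10.3 and 3.66 FPKM, Kdm5d at 4.10 and 1.39 FPKM and Uty at 2.37 and 0.70 FPKM. The sex of the mice was not stated, and its part in the Eif2s3y value was not tested. Eif2s2, the beta subunit, was at 37.7 and 54.3 FPKM (0.51), whereas Eif2s1, the alpha subunit whose phosphorylation halts initiation, was at 19.0 and 20.9 FPKM (0.13). This group was counted with Eif2a and Eif2d, which do not encode subunits of eIF2. Of its 6 genes 4 were higher as deposited and 3 with equal totals, and the lower ones as deposited were Eif2s3y and Eif2d.

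The exchange factor eIF2B, which returns eIF2 to its active form, had 5 of 5 genes higher, with a median change of 0.40, and 3 of 5 higher with equal totals. Eif2b2 was at 23.6 FPKM in WT and 36.4 in Postn-DTR (0.60), and Eif2b4 was at 17.9 and 19.4 FPKM (0.11). The Eif2b2 to Eif2b4 ratio was 1.32 in WT and 1.88 in Postn-DTR. Among the 4 kinases of eIF2, which respond to heme loss, double-stranded RNA, endoplasmic reticulum stress and amino acid shortage, 3 were higher as deposited and 1 with equal totals. Eif2ak1, the heme-regulated kinase, was at 26.2 and 33.8 FPKM (0.35), and Eif2ak2, which senses double-stranded RNA and is an interferon-induced gene, was the lower one (-0.20). Eif5a, Eif5a2, Eif5b, which joins the subunits, and Eif6 were grouped together, with 4 of 4 genes higher as deposited and 2 of 4 with equal totals. Eif6, which keeps free large subunits from joining, was at 47.6 and 69.0 FPKM (0.52), and Eif5a was at 345 and 417 FPKM (0.27).

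Members commonly listed as TOP messages were compared with the remaining members. Of these 9 (Eef1a1, Eef1b2, Eef1d, Eef1g, Eef2, Eif3e, Eif3f, Eif3h and Eif4b) 8 were higher as deposited and 7 with equal totals, with medians of 0.50 and 0.15. The other 52 members had a median of 0.26 as deposited, with 45 higher, and -0.06 with equal totals, with 19 higher. The lower one as deposited was Eef1g. A tract at an annotated coding transcript start was found in 9 of 61 members, or 14.8%, beside 5.73% of all genes compared with such a transcript, and in 28.0% of ribosomal protein genes, although ribosomal protein messages are the textbook TOP class. Such a run anywhere in the first 50 bases of a RefSeq transcript, as in Eef2, was common, with 33 of 48 members (68.8%) beside 55.1% of all genes compared. Members with a tract had a median change of 0.23 and those without had 0.30, and Eif4a2 and Eif4g2, both lower, were among the former. These values describe annotated starts only. Of the 9 listed members 3 had a tract at one, and annotated starts can miss the start that cells use, so the split by tract is no measure of TOP messages.

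Abundance moved together with these differences, with a Pearson r of 0.35 and a Spearman rho of 0.40 between change and log2 mean FPKM across the 61 members, as a description. The 12 members between 100 and 300 mean FPKM had a median change of 0.51, beside 0.17 for 584 other genes in that range. The 4 members under 10 mean FPKM had a median of 0.08, beside -0.08 for 5916 other genes. For the 5 members at 300 mean FPKM or more the median was 0.45, beside 0.50 for 279 other genes, or 0.26 for the 207 that were not ribosomal proteins. The 20 members between 10 and 30 mean FPKM had a median of 0.23 and those between 30 and 100 had 0.22, beside 0.04 and 0.13 for other genes. In each range but the highest, the median of the members was thus above that of other genes of like abundance. Listed TOP members are mostly abundant, and the part of abundance in their median was not tested.

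Other genes of protein synthesis gave a wider frame for the factors. Ribosomal protein genes were higher in 82 of 83 compared, with a median change of 0.63, and in 80 of 83 with equal totals, with a median of 0.29. Their summed FPKM was 76946 in WT and 120907 in Postn-DTR, so the ratio of member FPKM to ribosomal protein FPKM was 0.113 in WT and 0.0964 in Postn-DTR. The factors were thus less abundant beside ribosomal protein transcripts in the Postn-DTR library. Rps29 was at 2739 and 4624 FPKM, and the lower gene was Rps4l (24.9 and 15.7 FPKM). Other genes with TOP messages, a list that shares some genes with the ribosomal proteins, were higher in 10 of 11, with a median of 0.49, and in 8 of 11 with equal totals. Tpt1 was at 2492 and 4144 FPKM, and the lower gene was Vim, which encodes an intermediate filament protein of mesenchymal cells (883 and 836 FPKM).

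**Figure D4:**
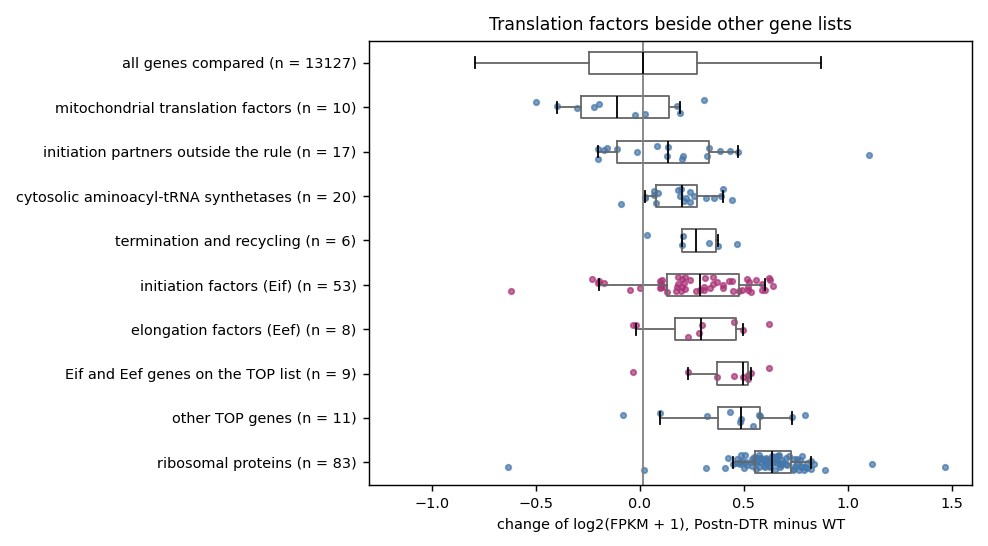
Difference in log2(FPKM + 1) between Postn-DTR and WT, positive where Postn-DTR was higher, in initiation factors, elongation factors and other gene lists of protein synthesis, 1 point per gene, with boxes for the median and quartiles and whiskers to the outermost gene inside the 5th to 95th percentiles. As deposited, ribosomal protein genes have the highest median (0.63), initiation and elongation factors lie at 0.29 (-0.03 with equal totals), and mitochondrial translation factors at -0.11 (-0.42 with equal totals).

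Factors acting after elongation, in termination and recycling, resembled the members, with 6 of 6 genes higher as deposited (median 0.27) and 3 of 6 with equal totals. Etf1, which recognises stop codons, was at 36.4 FPKM in WT and 50.9 in Postn-DTR. Mitochondrial translation factors, encoded in the nucleus and acting on mitochondrial ribosomes, differed from the cytosolic set. Of 10 such genes 4 were higher and 6 lower as deposited, with a median of -0.11, and 1 was higher with equal totals. Tufm, the mitochondrial counterpart of Eef1a1, was at 57.2 FPKM in WT and 40.2 in Postn-DTR (-0.50), a direction opposite to that of Eef1a1. Cytosolic aminoacyl-tRNA synthetases, which charge the tRNAs that eEF1A delivers, were higher in 19 of 20 as deposited, with a median of 0.21, but in 4 of 20 with equal totals. Gars was at 41.2 and 56.3 FPKM, and the lower gene was Dars (30.2 and 28.3 FPKM).

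Regulators of the factors were mixed. Of 17 partners of initiation outside the symbol rule 11 were higher and 6 lower as deposited, with a median change of 0.13, and 5 were higher with equal totals. Ppp1r15a, which directs dephosphorylation of eIF2 alpha, was at 12.3 FPKM in WT and 27.6 in Postn-DTR (1.10), Pabpc1, the poly(A)-binding protein, at 242 and 303 FPKM (0.32), and Mknk2, a kinase of eIF4E, at 172 and 149 FPKM (-0.20). ATF4 targets, whose transcription follows phosphorylation of eIF2, were higher in 10 of 17 genes and lower in 7 as deposited, with a median of 0.23, and were higher in 8 with equal totals. Atf4 itself was at 109 and 165 FPKM (0.59), Chac1 was at 2.60 and 8.86 FPKM (1.45), Nupr1 was at 236 and 343 FPKM (0.53), and Stc2 was lower, at 3.86 and 1.90 FPKM (-0.74). The list therefore had members on both sides. In the mTORC1 pathway 9 of 15 genes were higher as deposited, with a median of 0.13, and 4 with equal totals. The largest differences were in genes that restrain mTORC1, in both directions. Ddit4 was at 34.7 FPKM in WT and 173 in Postn-DTR (2.28), Sesn1 at 36.1 and 84.2 FPKM, Sesn2 at 6.65 and 14.1 FPKM (0.98), and Deptor at 10.2 and 5.53 FPKM (-0.78). Other genes that restrain it differed less, with changes of 0.31 for Tsc1, -0.28 for Tsc2 and -0.19 for Sesn3. Phosphorylation and translation were not measured.

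Counting error, as estimated here, was small beside most of these differences. Fragments were estimated from the FPKM and the longest annotated transcript of each member. A member whose main transcript is shorter gets too many fragments and too narrow an interval. The member with the fewest was Eif5a2, with 128 in WT and 171 in Postn-DTR, a ratio of 1.28 with a 95% exact interval of 1.01 to 1.62. The interval of the ratio as deposited left out a value of 1 for 56 of 61 members, and it held 1 for Eef1e1, Eef1g, Eif2b4, Eif2d and Eif4e, whose differences were not detectable at this depth. The count of 56 can be too high where the main transcript is shorter than the longest. No such intervals were computed for other genes, so this count does not set the members apart. The intervals also take the deposited scaling as given, and a small offset between libraries can leave out 1. For Eef1a1 the interval was 1.40 to 1.42 and for Eif2s3y 0.588 to 0.690. These intervals cover counting error between these libraries only, rest on approximate depths, and say nothing of variation between mice.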

How the data were processed

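The authors deposited FPKM per gene symbol for each of 2 libraries from total RNA of omentum, prepared with a stranded mRNA kit per the labels. The submitters' processing notes name TopHat2 2.1.1, Bowtie2 2.2.8, SAMtools 0.1.18, Cuffdiff 2.2.1 and build mm10. The annotation and the use of strand in counting were not given in the sources used here, so 18 members that overlap a gene on the opposite strand and 3 on the same strand are less certain. Groups came from the genotype label.

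Changes were computed with a pseudocount of 1, which understates the change of low genes, over genes whose mean over both libraries reached 1 FPKM. Ratios and sums used FPKM without a pseudocount. No test was run, because each genotype had 1 library. The members and the gene lists, which share some genes, were chosen with earlier results of these data known, as were the pairs for ratios. Values in full were given for the 10 most abundant members, the 8 largest increases and 8 largest decreases, the listed TOP members, and the 3 genes on each side of the minimum, and other members were named by role. From each gene list the extremes and the most abundant genes were eligible, and further genes of the mTORC1 list were named.

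Depth was estimated from the steps between low FPKM values, which reflect the total that the FPKM were divided by. Among 723 genes under 0.1 FPKM, 174 shared a Postn-DTR to WT ratio near 0.967, and 79.4% and 80.7% of the low values used came out as whole fragments within 0.1. The resulting totals, about 22.95 (WT) and 23.95 (Postn-DTR) times 1e6 fragments, depend on GENCODE M21 transcript lengths and are approximate. Fragments of a member were estimated with its longest annotated transcript, and intervals were exact (Clopper-Pearson) on these fragments. Alternatives were pseudocounts of 0.1 and 5, a minimum of 10 FPKM or none, centring, a common 75th percentile, and equal totals without acinar genes or without acinar and ribosomal protein genes. The scripts were tested on simulated data. Python 3.11.15, numpy 2.4.6, pandas 2.3.3, scipy 1.17.1 and matplotlib 3.10.9 were used.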

Additional observations from a re-analysis of the deposited data

How the results depend on the processing

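The median change of initiation factors (0.29) was -0.029 with equal totals without acinar genes and 0.0285 when ribosomal protein genes were removed as well. That of elongation factors (0.29) was -0.027 and 0.029 under the same settings, and that of listed TOP members (0.50) was 0.15 and 0.21. The number of members at least 1.5-fold higher (7) was 3 with a pseudocount of 5, and 0 with a common 75th percentile and with both equal totals. The number at least 1.5-fold lower (1) was 0 with a pseudocount of 5. Equal totals lower changes, though less for genes of low FPKM, and a larger pseudocount shrinks changes, by construction. Among the 27 members given in full, 24 kept the sign of their change under every alternative run, but these were chosen largely as the biggest changes and highest levels, and over all 61 members the number higher was 53 as deposited and 26 with equal totals. Apart from the values given here, the medians of initiation, elongation and listed TOP members and the counts past 1.5-fold moved by no more than 1.5 times. Medians of role groups and other gene lists were compared only as deposited and with equal totals. Several of those moved further, such as eIF3 (0.48 and 0.14) and ribosomal proteins (0.63 and 0.29). With 1 library per genotype no library could be left out. No paired analysis was possible because each genotype had 1 library.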

Other observations

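Across the 61 members the change was lower for longer transcripts, with a Pearson r of -0.37 and a Spearman rho of -0.41 against log2 of the longest annotated transcript. These are correlations across genes of the same libraries, which are not independent replicates, and over 12658 genes compared the values were -0.07 and -0.13. The 31 members with a longest transcript of at most 2865 bases had a median change of 0.34, beside 0.08 for all genes compared of such length, and the 30 longer members had 0.20, beside -0.02. There were exceptions on both sides, since Eif3b (2945 bases) had the highest change and Eef1g (1864 bases) a change of -0.03. The longest annotated transcript need not be the one a gene mainly uses, so some members may have been given too great a length.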
